A study of Homo sapiens with 12 samples.

Results

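Gluconeogenesis builds glucose from lactate, amino acids and glycerol, and 5 of its genes were followed here by their symbol in the deposited table: PC, PCK1, PCK2, FBP1 and PPARGC1A, 5 of the 26125 rows. They were selected on the FPKM values of OTA and control cells, in which PCK1 was known to be lower with OTA, so the contrast of OTA with control is given for them as a description, with no test. A mean of at least 1 FPKM (fragments per kilobase of transcript, scaled to the mapped fragments of a library) over the 12 libraries was required for testing; 4 of the 5 genes and 12928 of all rows met it, and PPARGC1A did not.

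The pathway runs largely backwards along glycolysis and bypasses its irreversible steps with enzymes of its own. Pyruvate carboxylase makes oxaloacetate in the mitochondrion, phosphoenolpyruvate carboxykinase turns oxaloacetate into phosphoenolpyruvate, fructose-1,6-bisphosphatase removes a phosphate from fructose 1,6-bisphosphate, and glucose-6-phosphatase releases glucose. Liver and kidney are its main sites, the small intestine carries it too, and transcription of the cytosolic carboxykinase gene is known to respond to cyclic AMP, glucocorticoids and insulin.

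RNA was sequenced from Caco-2 cells, a line from a human colon adenocarcinoma whose confluent monolayers come to resemble enterocytes, grown on transwell inserts until day 21 in medium with 4.5 g/L glucose and then moved to a buffered salt solution. The apical chamber (0.5 mL) received 15 µmol/L ochratoxin A (OTA), a mould toxin, together with the bacterium Bacillus subtilis CW14, OTA alone, CW14 alone, or neither (control), with 3 libraries in each of the 4 groups. The labels used here do not give the time of exposure, and they do not say that libraries came from separate cultures, so p-values measure the spread between these libraries, which may be technical. In bulk RNA, fewer cells of a kind and less RNA per cell cannot be told apart.

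Library 3 of the OTA plus CW14 group stood apart. Its residual SD around the group means was 0.588 on the log2 scale, against 0.305 to 0.424 in the other libraries, and its relative depth was the lowest, 0.470 of control library 1. Several values are also given without it. Of 14 enterocyte markers 12 were above the filter, with summed levels of 4603 to 7565 FPKM in OTA plus CW14, 5542 to 6020 in OTA, 4834 to 5613 in CW14 and 5793 to 6186 in control cells, although SI, the sucrase-isomaltase gene, stayed below it. The median difference of these 12 in log2(FPKM + 1) was −0.56 in OTA plus CW14 against OTA and −0.17 against CW14. It was 0.29 in OTA and −0.06 in CW14, each against control. COL1A2, DCN and PTPRC, markers of fibroblasts and leukocytes, were listed at 0 in every library. The summed level of 4 leukocyte markers was 13.4 to 17.5 FPKM in OTA plus CW14, 7.30 to 8.31 in OTA, 8.59 to 9.37 in CW14 and 6.51 to 9.76 in control cells, with CD14 the 1 of them above the filter, and its part in the results was not tested.

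Promoter sequence was matched for 4 of the 5 genes in RefSeq (GRCh38.p14), as 250 bases before to 50 after each listed start. PCK1 had no entry, so its promoter could not be compared. The promoters of PCK2 and FBP1 are printed because the RNA of both stayed near or above its control level where that of PCK1 did not. They lie at chr14:24094061-24094360 on the plus strand and at chr9:94639469-94639768 on the minus strand. Capitals mark the GC box GGGCGG and the CCAAT box CCAAT, searched on both strands together with the TATA box TATAAA.
PCK2: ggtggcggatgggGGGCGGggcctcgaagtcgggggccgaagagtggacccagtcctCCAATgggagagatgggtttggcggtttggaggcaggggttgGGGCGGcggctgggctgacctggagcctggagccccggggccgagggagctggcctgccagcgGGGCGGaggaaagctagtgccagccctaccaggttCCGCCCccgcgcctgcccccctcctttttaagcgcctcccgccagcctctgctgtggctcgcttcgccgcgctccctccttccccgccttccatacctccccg
FBP1: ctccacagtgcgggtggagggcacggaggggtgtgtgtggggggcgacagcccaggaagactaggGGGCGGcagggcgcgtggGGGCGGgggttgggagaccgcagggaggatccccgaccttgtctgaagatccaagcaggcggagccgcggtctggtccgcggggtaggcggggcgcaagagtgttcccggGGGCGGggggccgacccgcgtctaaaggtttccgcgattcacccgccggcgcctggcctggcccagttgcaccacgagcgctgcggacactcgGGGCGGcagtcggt
The GC box occurred 4 times in each of these windows, and 44.95% of 35114 promoters of the same length held it. The CCAAT box occurred 1 time in the PCK2 window and 0 times in the FBP1 window, against 34.62% of all promoters. TATAAA was found in neither window, against 11.53% of all promoters, and the cyclic AMP response element TGACGTCA was found in neither, against 1.848%. These are matches of letters only.

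PCK1, at chr20:56136135-56141513 in the deposited table (hg19, whose start convention is not stated), encodes the cytosolic phosphoenolpyruvate carboxykinase. It had 1.46, 1.97 and 3.47 FPKM in OTA plus CW14 cells, 8.18, 12.2 and 8.29 FPKM in OTA cells, 133, 89.9 and 79.0 FPKM in CW14 cells and 173, 129 and 89.6 FPKM in control cells. The 4 groups thus formed 3 separate tiers, with OTA plus CW14 lowest, OTA above it, and CW14 and control overlapping at the top. Group means were 2.30 ± 1.05 FPKM in OTA plus CW14, 9.55 ± 2.29 in OTA, 100.5 ± 28.3 in CW14 and 131 ± 41.9 in control cells (SD, n = 3 each). In rank, PCK1 lay above 12.8% of tested genes in OTA plus CW14 and near the middle in OTA, against 94.1% in CW14 and 95.5% in control cells.

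**Figure D1:**
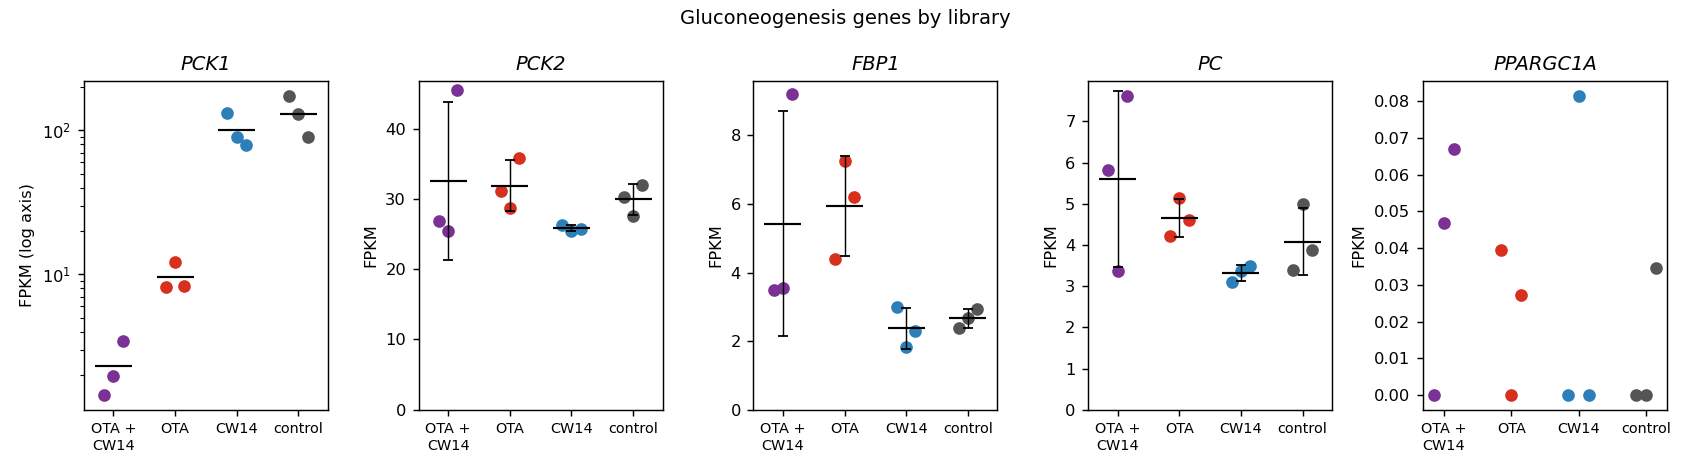
FPKM of the 5 genes in each library, by group in the order OTA plus CW14, OTA, CW14 and control. Points are libraries, and bars are the mean ± SD of 3 libraries. PCK1 has a mean line without an SD bar, on a logarithmic axis, and PPARGC1A has points only. PCK1 sits between 1.46 and 3.47 FPKM in OTA plus CW14, against 89.6 to 173 FPKM in control cells.

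The contrast of OTA plus CW14 with CW14 shares no library with the contrast that chose the genes, and PCK1 fell there by 4.95 on the log2(FPKM + 1) scale (SE 0.29; 95% interval −5.62 to −4.29; adjusted p = 4.19e-07, limma with Benjamini-Hochberg adjustment). The ratio of group means was 43.7-fold, and the difference was the 10th lowest of 12928. In this contrast 32.3% of tested genes were called at an adjusted p under 0.05, 17.5% lower and 14.8% higher, and the 4 tested members gave 1 call in each direction. PCK1 libraries did not overlap, as for 21.9% of tested genes in that direction. The PCK1 call held in each alternative run for this contrast.

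Against OTA alone, PCK1 in OTA plus CW14 cells fell by a further 1.70 (SE 0.29; 95% interval −2.37 to −1.04; adjusted p = 0.00512, limma), 4.15-fold by group means. This contrast shares the OTA libraries with the one that chose the genes. PCK1 was the 1 of 4 members called, against 16% of tested genes, 8.22% lower and 7.79% higher. Its libraries did not overlap, as for 16.6% of tested genes in that direction, and the call was lost with the spread taken from these groups alone (adjusted p = 0.0529).

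With CW14 alone, PCK1 differed from control by −0.36 (95% interval −1.03 to 0.30; adjusted p = 0.929, limma). Of the members 0 of 4 were called in this contrast by limma, and 0 had an unadjusted p under 0.05; of all tested genes 0.364% were called, 0.217% higher and 0.147% lower. The contrast shares the control libraries with the choosing one. With OTA alone the difference from control was −3.61 (SE 0.29), 13.7-fold by group means; it is given with no test, and 17.7% of tested genes were called there, 12.9% lower and 4.82% higher. PCK1 lay below control without overlap, as did 25.7% of tested genes. The difference of differences, OTA plus CW14 minus CW14 less OTA minus control, was −1.34 (SE 0.41; 95% interval −2.28 to −0.40), also with no test, since it uses the choosing contrast, and for that interaction 3.33% of tested genes were called.

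PCK2, at chr14:24563338-24573341, encodes the mitochondrial isoenzyme of the same reaction. It had 26.8, 25.4 and 45.6 FPKM in OTA plus CW14 cells, 31.1, 28.7 and 35.9 FPKM in OTA cells, 26.3, 25.5 and 25.8 FPKM in CW14 cells and 30.3, 27.5 and 32.0 FPKM in control cells. Apart from library 3 of OTA plus CW14, at 45.6 FPKM, all libraries lay between 25.4 and 35.9 FPKM. OTA plus CW14 differed from CW14 by 0.27 (95% interval −0.17 to 0.72; adjusted p = 0.289, limma) and from OTA by −0.01 (95% interval −0.45 to 0.43; adjusted p = 0.969). Without library 3 these differences were 0.01 (adjusted p = 0.938, limma) and −0.27 (adjusted p = 0.0961). CW14 lay below control in every library without overlap, as did 10.9% of tested genes, with a difference of −0.20 (95% interval −0.64 to 0.24; adjusted p = 0.947).

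The within-library ratio of PCK1 to PCK2 was 0.0543, 0.0777 and 0.0762 in OTA plus CW14 cells, 0.263, 0.425 and 0.231 in OTA cells, 5.04, 3.53 and 3.06 in CW14 cells and 5.72, 4.69 and 2.80 in control cells. FPKM is per length, so the RNA levels of both genes can be set side by side, though only roughly, since the annotation used is not given. These are not enzyme levels. By FPKM, PCK1 exceeded PCK2 in every CW14 and control library, and PCK2 exceeded PCK1 in every library with OTA.

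FBP1, at chr9:97365419-97402531, encodes fructose-1,6-bisphosphatase of liver and kidney type. It had 3.50, 3.55 and 9.21 FPKM in OTA plus CW14 cells, 4.39, 7.26 and 6.20 FPKM in OTA cells, 2.99, 1.82 and 2.31 FPKM in CW14 cells and 2.39, 2.67 and 2.94 FPKM in control cells. Every library with OTA was above every library without it, the reverse of PCK1; 19.9% of tested genes lay higher without overlap in OTA plus CW14 against CW14 and 24.4% in OTA against control. In OTA plus CW14 against CW14 it rose by 0.83 (SE 0.30; 95% interval 0.15 to 1.51; adjusted p = 0.0486, limma). That call was narrow: it held in 6 of 20 alternatives, and without library 3 of OTA plus CW14 the difference was 0.44 (adjusted p = 0.123). With OTA alone the difference from control was 0.90 (SE 0.30), given with no test.

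PC, at chr11:66615995-66725847, encodes the biotin-dependent pyruvate carboxylase that supplies oxaloacetate. It had 5.83, 3.36 and 7.62 FPKM in OTA plus CW14 cells, 4.22, 5.14 and 4.60 FPKM in OTA cells, 3.10, 3.38 and 3.48 FPKM in CW14 cells and 3.38, 4.98 and 3.88 FPKM in control cells. The groups overlapped except for OTA and CW14. OTA plus CW14 differed from CW14 by 0.56 (SE 0.23; 95% interval 0.03 to 1.08), which missed the threshold (adjusted p = 0.0785, limma), passed it without library 2 of that group (0.83, adjusted p = 0.00554), and was 0.34 without library 3 (adjusted p = 0.224).

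**Figure D2:**
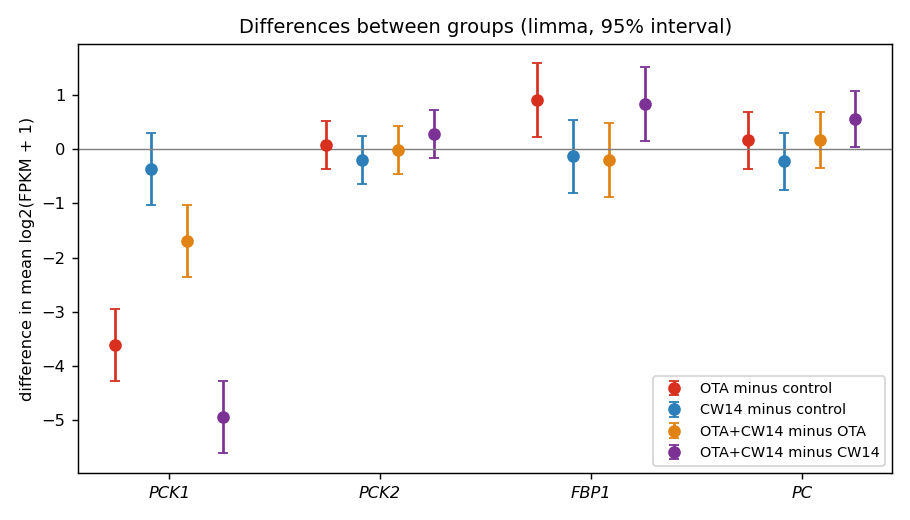
Differences between groups in mean log2(FPKM + 1) for the 4 tested genes, over 3 libraries a group. The 95% intervals use the limma SE with 8 residual degrees of freedom. PCK1 lies at −4.95 in OTA plus CW14 minus CW14, while PCK2 and PC stay between −0.22 and 0.56 in the 4 contrasts.

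PPARGC1A, at chr4:23793642-23891700, encodes PGC-1alpha, a coactivator that drives the pathway's genes in fasted liver. It was listed at 0, 0.0469 and 0.0670 FPKM in OTA plus CW14 cells, 0.0393, 0 and 0.0272 in OTA cells, 0, 0.0814 and 0 in CW14 cells and 0, 0 and 0.0345 in control cells. A listed 0 can be a failed estimate, and no change could be measured at this level. Its relative PPARGC1B was above the filter, with 2.23 ± 0.228 FPKM in OTA plus CW14 cells and 3.78 ± 0.633 FPKM in CW14 cells (SD, n = 3 each), and fell by 0.56 (adjusted p = 0.0255, limma), a call lost with the spread of these groups alone (adjusted p = 0.102). In OTA plus CW14 against CW14, 17.5% of all tested genes were called lower and 14.8% higher. No list count here or below was tested against these shares. Over the 13 genes of the PGC-1 family and mitochondrial biogenesis, 3 were lower and 0 higher in that contrast, with a median difference of −0.21. The other two were PPRC1 (difference −0.97, adjusted p = 0.00517) and GABPA (−0.80, adjusted p = 0.04, and −0.43 without library 3), both lost with the spread of these groups alone (adjusted p = 0.0599 and 0.154); ESRRA, the estrogen-related receptor, differed by −0.08 (adjusted p = 0.729).

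Of 10 further gluconeogenic and glucose-releasing genes 7 were tested. In OTA plus CW14 against CW14 2 were higher and 1 lower, beside 14.8% and 17.5% of all tested genes (median 0.32, median over all tested genes 0.02). G6PC3, the widely expressed glucose-6-phosphatase, had 38.5, 38.0 and 60.6 FPKM in OTA plus CW14 cells, against 24.5, 17.4 and 24.8 FPKM in CW14 cells, with no overlap (difference 0.99, SE 0.20, adjusted p = 0.00327, limma). GOT2, the mitochondrial aspartate aminotransferase that passes oxaloacetate carbon outwards, averaged 82.7 ± 17.2 FPKM in OTA plus CW14 cells and 45.8 ± 3.73 FPKM in CW14 cells (difference 0.82, adjusted p = 0.00148, limma). SLC37A4, the glucose-6-phosphate transporter, differed by 0.32 (adjusted p = 0.0941), and by 0.19 without library 3.

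G6PC, the glucose-6-phosphatase of liver, stayed below the filter, between 0.0741 and 0.891 FPKM over all 12 libraries.

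**Figure D3:**
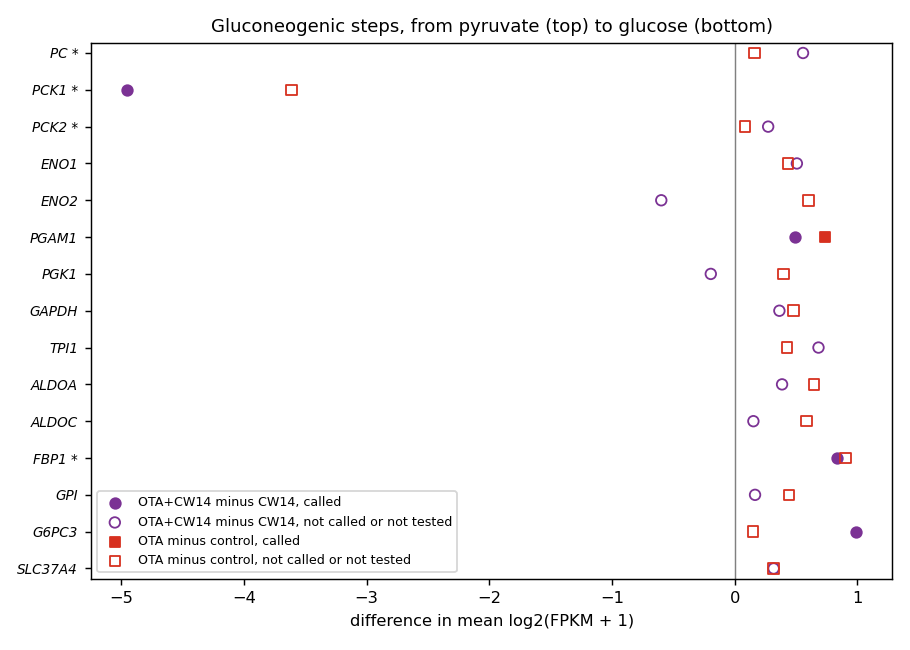
Difference in mean log2(FPKM + 1) for genes of the pathway in its order, for OTA plus CW14 minus CW14 and for OTA minus control; filled marks passed an adjusted p under 0.05, open marks did not or were not tested, and an asterisk marks the followed genes. PCK1, at −4.95 and −3.61, lies far to the left of every other enzyme drawn.

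A list of 16 tested genes took in glycolytic steps that oppose the pathway, the oxidation of pyruvate, and regulators of these. In OTA plus CW14 against CW14, 3 were higher and 4 lower (median 0.09, and −0.04 without library 3), beside 14.8% and 17.5% of all tested genes. The list mixes steps with genes that restrain them, such as PDK4 and PDK2, so its counts give no direction for the opposing steps. The 4 that fell were PDK4, HK2, PFKFB2 and PFKFB3. PDK4 encodes the kinase that restrains the oxidation of pyruvate, and stood at 1.03, 0.329 and 0.469 FPKM in OTA plus CW14 cells, against 6.11, 6.13 and 5.05 FPKM in CW14 cells (difference −2.09, adjusted p = 2.06e-05, limma). The 3 genes that rose, PKM, PDHA1 and PDK2, were singled out after their values were seen, with differences of 0.63, 0.55 and 0.74. HK2, hexokinase 2, and PFKFB2 and PFKFB3, which make and break the fructose 2,6-bisphosphate that inhibits fructose-1,6-bisphosphatase, differed by −1.07, −1.39 and −1.07 (adjusted p = 0.00329, 0.00277 and 0.0029, limma). Of 9 tested reversible steps shared with glycolysis 1 was higher, PGAM1 (phosphoglycerate mutase; difference 0.49, adjusted p = 0.00661, limma), and the list's median was 0.37, or −0.0024 without library 3. In OTA against control PGAM1 was again the 1 called (difference 0.74, adjusted p = 0.000729), while all 9 were called higher with the spread of those groups alone, a fit that called 2093 of all 12928 tested genes higher.

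Of 18 tested genes of substrate entry 7 were higher and 4 lower in OTA plus CW14 against CW14, beside 14.8% and 17.5% of all tested genes. GLUD1, glutamate dehydrogenase, had 550, 463 and 442 FPKM in OTA plus CW14 cells, against 212, 190 and 259 FPKM in CW14 cells (difference 1.14, adjusted p = 0.000208, limma). SLC25A10, the mitochondrial dicarboxylate carrier, differed by 1.23 (adjusted p = 0.00456, limma). GK, glycerol kinase, differed by −1.05 (adjusted p = 0.00188, limma). With the spread of these groups alone the list gave 1 higher and 1 lower. That fit called 504 of all 12928 tested genes higher and 1017 lower. PGAM1 and SLC25A10 were no longer called in it (adjusted p = 0.0798 and 0.0578, limma).

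Of 33 tested transcription regulators of the pathway, 16 were lower and 3 higher in OTA plus CW14 against CW14 (median −0.38), beside 17.5% and 14.8% of all tested genes. In OTA against control 17 were lower and 0 higher (median −0.45), where 12.9% of all tested genes were called lower. The list was chosen with earlier results of these data known, so its counts are a description and no test of the list. With the spread of the compared groups alone, 8 regulators were lower in OTA plus CW14 against CW14, as were 1017 of all tested genes. ATF3, a stress-induced repressor, had 16.1, 17.2 and 11.8 FPKM in OTA plus CW14 cells, against 321, 248 and 265 FPKM in CW14 cells (difference −4.13, adjusted p = 1.07e-07, limma). SIK1, a kinase that restrains CREB coactivators, had 5.01, 4.02 and 4.46 FPKM in OTA plus CW14 cells, against 43.4, 43.3 and 46.7 FPKM in CW14 cells (difference −3.05). NR4A1, an orphan receptor induced by cyclic AMP, differed by −2.72 (adjusted p = 2.58e-07), KLF9 by −2.45 (1.49e-06), FOXO1, the insulin-restrained activator, by −1.64 (5.83e-05) and CEBPB by −1.37 (0.000187). CREB1, the cyclic AMP response factor, and TRIB3, a pseudokinase that restrains insulin signalling, differed by −0.69 and −0.68, and both calls were lost with the spread of these groups alone (adjusted p = 0.0952 and 0.0595). The 3 regulators that rose, CEBPA, NR2F2 and KAT2A, were singled out after their values were seen, with differences of 0.56, 0.78 and 0.87. KLF15 stayed below the filter.

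HNF4A, the nuclear receptor of liver and gut epithelium, kept 153, 163 and 145 FPKM in OTA plus CW14 cells, against 158, 160 and 174 FPKM in CW14 cells (difference −0.09, adjusted p = 0.562). In OTA alone it had 103, 113 and 114 FPKM, against 160, 140 and 146 FPKM in control cells (difference −0.43, adjusted p = 0.0176, limma), a call that held in 15 of 21 alternatives (highest adjusted p = 0.0904). By group mean, PCK1 was lowest in OTA plus CW14 and HNF4A in OTA alone.

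**Figure D4:**
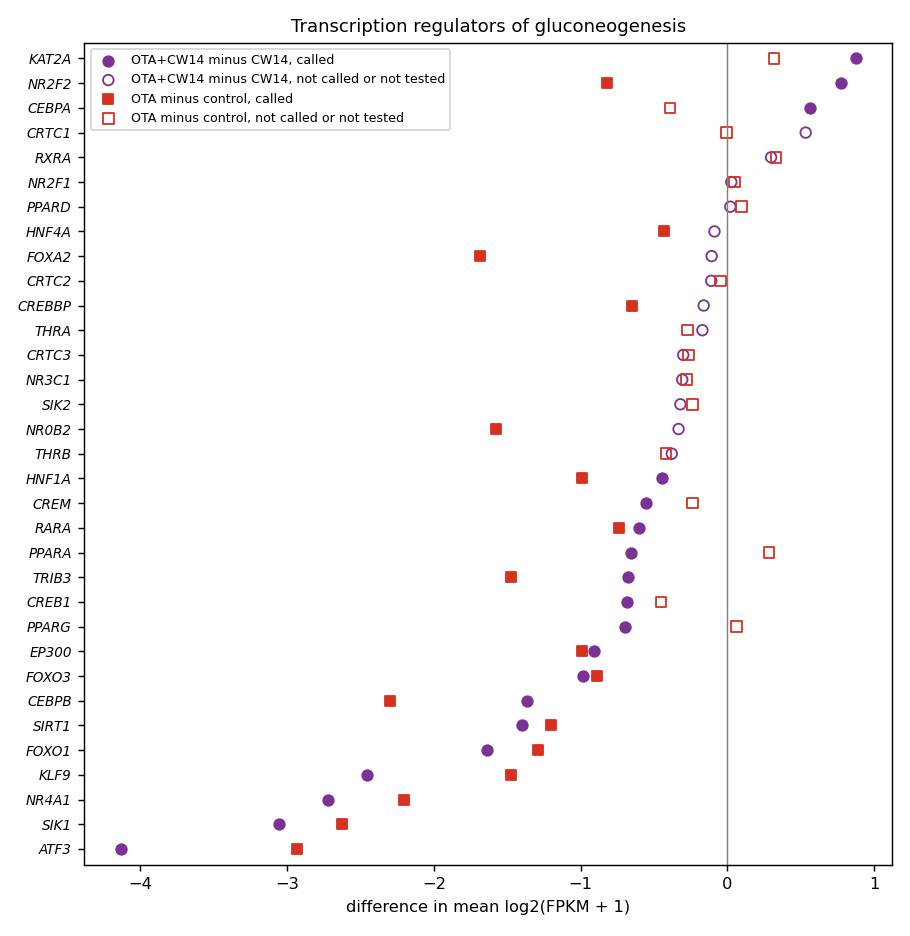
Difference in mean log2(FPKM + 1) for the regulators of gluconeogenesis, for OTA plus CW14 minus CW14 and for OTA minus control; filled marks passed an adjusted p under 0.05. ATF3 and SIK1 lie lowest, at −4.13 and −3.05 in OTA plus CW14 minus CW14.

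Of 10 genes tied to ATF4, the amino acid stress factor, and to serine synthesis, 5 were lower and 3 higher in OTA plus CW14 against CW14. Of all tested genes 17.5% were lower there and 14.8% higher. CHAC1, a glutathione-degrading enzyme, averaged 1.84 ± 0.963 FPKM in OTA plus CW14 cells and 16.8 ± 2.23 FPKM in CW14 cells (SD, n = 3 each), and DDIT3, the stress factor CHOP, 48.2 ± 14.5 and 351 ± 84.4 FPKM in the same groups. Their differences were −2.69 and −2.84 (adjusted p = 1.17e-05 and 5.65e-06, limma). SLC7A11, the cystine carrier, averaged 3.07 ± 0.570 FPKM in OTA plus CW14 cells and 10.5 ± 1.72 FPKM in CW14 cells (adjusted p = 0.000309, limma; SD, n = 3 each). SESN2 differed by −1.36 (adjusted p = 0.000821) and ATF4 itself by −0.72 (adjusted p = 0.0077), which was no longer called with the spread of these groups alone (adjusted p = 0.0854). The 3 that rose, PHGDH, PSAT1 and PSPH, are the enzymes of serine synthesis and were singled out after their values were seen, with differences of 0.86, 0.53 and 0.51.

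In OTA plus CW14 against CW14, 14.8% of all tested genes were called higher and 17.5% lower. Of 8 biotin-dependent carboxylases and biotin enzymes, which share the cofactor of PC, 2 were higher there and 0 lower. These were MCCC2 by 0.54 and BTD by 0.53, both calls lost with the spread of these groups alone (adjusted p = 0.154 and 0.137, limma). Of 6 glucose and fructose transporters 1 was lower, SLC5A1, the sodium-coupled glucose carrier, with a difference of −0.64, also lost there (adjusted p = 0.09), and SLC2A2 differed by −0.21 (adjusted p = 0.549). With CW14 alone against control, 0 of 120 tested genes of all these lists were called by limma and 11 had an unadjusted p under 0.05, which is 9.17% of them, against 6.64% of all tested genes.

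The genes with levels most like PCK1 over the 12 libraries, by Pearson's r of log2(FPKM + 1), were CLK1 (0.994), GEM (0.991), DDIT4 (0.991), GADD45B (0.990) and NR1D1 (0.990). CLK1, a kinase of splicing factors, averaged 4.11 ± 0.565 FPKM in OTA plus CW14, 11.1 ± 1.91 in OTA, 44.7 ± 7.00 in CW14 and 46.8 ± 8.68 in control cells (SD, n = 3 each), the same 3 tiers as PCK1. The libraries share group and depth differences, so the r is a description. The most alike genes were SKP1 (0.960), EPRS, AGR2, HS1BP3 and DAP3 for PCK2, NDUFA12 (0.954), ALDH3B1, PHYH, MAN2B1 and MPI for FBP1, and COQ3 (0.950), C4orf48, LYRM4, LTBP3 and EXOC2 for PC. Among the members themselves r was −0.30 for PCK1 with PCK2, −0.66 with FBP1 and −0.57 with PC, and 0.67 to 0.74 among PCK2, FBP1 and PC, all of which were highest in library 3 of OTA plus CW14. Over the 11 libraries without it r was −0.06 for PCK1 with PCK2, −0.61 with FBP1 and −0.50 with PC, and 0.28 to 0.55 among the other members.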

How the data were processed

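RNA-seq libraries of 150-base read pairs were made from 12 Caco-2 samples, per the labels' protocols. The authors deposited 1 table of FPKM values per gene and library; cutadapt 1.10, TopHat2 2.0.13, Cufflinks 2.2.1, Cuffnorm, Cuffdiff and the build hg19 are named in the submitters' processing notes, while the annotation and library scaling are not given here in any source used. FPKM values are not counts, so depth enters only as a relative value read from the steps between low FPKM values (ceiling 0.3 FPKM). Genes averaging 1 FPKM or more were fitted with limma 3.58.1 (R 4.3.3) on log2(FPKM + 1), over all 4 groups with 8 residual degrees of freedom and Benjamini-Hochberg adjustment over 12928 genes; calls are adjusted p under 0.05. On this scale, differences of genes with low values come out too small. The fit was tested on simulated data.

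The members and gene lists were chosen with earlier results of these data known. Of each list, up to 4 called genes with the largest difference in OTA plus CW14 against CW14 were named, with a set of pathway partners; some genes the rule names are not reported here. The comparisons made were OTA against control, CW14 against control, OTA plus CW14 against OTA and against CW14, and their interaction. Alternatives changed the pseudocount (0.1), the filter (5 FPKM or none), the scaling, the groups fitted, library weights, a replicate block and each library left out. Alternatives for the listed genes were added after seeing the data.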

Additional observations from a re-analysis of the deposited data

Results flagged for a closer look

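The effect of OTA differed with and without CW14 for 4 of the named genes, by the interaction term in limma with Benjamini-Hochberg adjustment over all tested genes, of which 3.33% were called. All 4 were named for a large called difference in OTA plus CW14 against CW14, which is part of this term. That choice favours such calls, so their number cannot be judged against that share. HK2, hexokinase 2, had an interaction of −1.62 (SE 0.30, adjusted p = 0.0219): OTA plus CW14 minus CW14 was −1.07 and OTA minus control 0.55. GK, glycerol kinase, had −1.11 (SE 0.27, adjusted p = 0.0476), from −1.05 with CW14 and 0.05 without. ATF3 had −1.2 (SE 0.26, adjusted p = 0.0338), from −4.13 with CW14 and −2.93 without. KLF9 had −0.98 (SE 0.24, adjusted p = 0.0476), from −2.45 with CW14 and −1.48 without. The calls held in 15 of 20 alternatives for HK2 (highest adjusted p = 0.0714, limma), 10 of 20 for ATF3 (0.0952) and 8 of 20 each for GK and KLF9 (0.129 each). Groups of 3 libraries were not screened for single outlying values.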

How the results depend on the processing

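OTA against control gave 2288 calls, 4621 with only the compared groups, 5417 with library weights and 1299 to 4364 with a library left out. CW14 against control gave 47, 25 with no filter, 195 with weights and 4 to 123. OTA plus CW14 against OTA gave 2070, 70 with only the compared groups, 4425 with weights and 653 to 3388. OTA plus CW14 against CW14 gave 4179, 1521 with only the compared groups and 2780 to 5297. The interaction gave 431, 235 with no filter, 3082 with weights, 286 with a replicate block and 17 to 1595. With the block the other counts were 2032, 43, 1807 and 3952. Deviations of same-numbered libraries had r from −0.15 to 0.15 over 18 pairs, and of other-numbered ones from −0.14 to 0.19 over 36 pairs. Deviations within a group cancel out, so these values cannot decide whether a number marks a shared culture or day, which the labels do not state. The FBP1 call was lost with the block (adjusted p = 0.0506). Of 246 values of the members in tested contrasts under an alternative, 224 kept direction and side of the threshold, 15 lost the call, 3 gained it and 4 that were not called changed sign; of 160 in contrasts given with no test, 158 moved by less than the spread between libraries and 7 changed sign. With a library left out, OTA plus CW14 minus OTA ran from −0.27 to 0.14 for PCK2 and from −0.049 to 0.44 for PC, OTA minus control from −0.050 to 0.21 for GK, and OTA plus CW14 minus CW14 from −0.22 to 0.11 for ESRRA and from −0.42 to 0.0048 for SLC2A2, which was 0.064 with weights. FBP1 and PC could not be tested at 5 FPKM. Of the calls in OTA against control 27.2% were higher, 46.2% with median-centred libraries, which shifts the median of all genes by 0.105; in OTA plus CW14 against OTA 48.6% and 36.7%. Relative depth, lowest in library 3 of OTA plus CW14, limits PPARGC1A and G6PC.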
